A study of Homo sapiens with 16 samples.

Results

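WNT ligands and their receptors were measured in OCI-AML3, a human acute myeloid leukaemia (AML) cell line, under 5 conditions. The members were the rows of the deposited table whose gene identifiers map to 34 listed symbols: 19 WNT ligands, 10 Frizzled receptors and 5 co-receptors, out of 62700 genes in the table. Of the 34, 16 reached a mean of 10 normalized counts across the 16 libraries and were tested among 14643 such genes. RNA-seq was available from 4 libraries of untreated cells and from 3 libraries each of cells given a retinoid (ATRA or Am80, each at 0.1 µM) alone or together with both inhibitors, all for 3 h. ATRA is all-trans retinoic acid, which activates all retinoic acid receptors, and Am80 (tamibarotene) is a synthetic retinoid selective for RARA. The inhibitors were GSK-LSD1 (0.1 µM), which blocks the histone demethylase LSD1, and MB3 (100 µM), which blocks the acetyltransferase GCN5. No group received the inhibitors without a retinoid, so a difference between a combination and its retinoid is the effect of both inhibitors on top of that retinoid, and the part of each inhibitor cannot be told apart. All libraries came from this established line, and neither the labels nor the methods say whether the repeats were separate cultures, so the tests measure the spread between libraries, which may be technical.

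WNT proteins are secreted lipid-modified ligands that act over short distances. They bind Frizzled receptors on the cell surface. With the co-receptors LRP5 or LRP6 this stabilises β-catenin, which then switches on genes together with TCF and LEF factors, whereas with ROR1, ROR2 or RYK it feeds branches that do not need β-catenin and act on polarity and movement. In blood-forming tissue the pathway is known for its part in the self-renewal of stem cells, and in AML for its part in leukaemia stem cells.

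The libraries held 11963898 to 33789718 reads on genes, with Am80 replicate 2 the deepest. The values are normalized counts, that is, reads divided by a size factor of the library. The label was checked against markers: all 8 markers of AML cells carried reads in every group, while CD3D, MS4A1, HBA1 and PF4, which define T cells, B cells, erythroid cells and platelets, had 0 reads throughout. Other genes of the same lists did carry reads. The 5 T or B lymphocyte markers summed to 22.2 to 53.7 normalized counts in a library. The 5 erythroid or platelet markers summed to 0 to 2.79, and 5 stromal or epithelial markers to 8.77 to 31.6. The summed level of the AML markers lay between 17003 and 23714 without inhibitors and between 13970 and 17276 with them, and the share of reads on mitochondrial genes lay between 6.02% and 7.53% without inhibitors and between 7.07% and 9.21% with them. Their part in the results was not tested. As a check of the treatment, 5 of 5 known retinoid target genes, CYP26A1 among them, rose with each retinoid. In bulk RNA, fewer cells that make a transcript and less RNA per cell cannot be told apart.

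The sequences before the start sites of 4 ligands, WNT5A, WNT1, WNT2B and WNT6, are shown as examples, because the retinoids act through receptors that bind DNA near their target genes. RefSeq windows (GRCh38.p14) were matched to 25 of the 34 members. Unmatched were WNT7B, WNT10B, WNT11, FZD2, FZD3, FZD6, FZD7, FZD10 and LRP6. The other windows, among them a downstream start of WNT2B and those of FZD4, FZD9, WNT3, WNT9A and WNT10A, were searched but are not printed. They were searched on both strands for the core motif of retinoic acid receptors, spelled AGGTCA with its variants AGTTCA and further GGGTCA and lastly GGTTCA, and for the TCF/LEF motif, spelled ATCAAAG with its variants TTCAAAG and further AACAAAG and lastly TACAAAG. The searched window ran from 250 bases before to 50 bases after each start, and only the 250 bases before it are printed, 5′ to 3′ on the strand of the gene. Capitals mark a core motif on either strand. The last bases of AGTTCA (and likewise those of GGTTCA) can also be the first bases of TTCAAAG.
WNT5A, upstream start, chr3:55487307-55487556, minus strand: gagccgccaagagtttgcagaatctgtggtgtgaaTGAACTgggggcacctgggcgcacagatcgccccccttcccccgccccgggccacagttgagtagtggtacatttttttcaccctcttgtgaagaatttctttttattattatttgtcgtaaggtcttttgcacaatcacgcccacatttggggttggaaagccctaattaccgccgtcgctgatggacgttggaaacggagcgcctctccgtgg
WNT5A, downstream start, chr3:55481399-55481648, minus strand: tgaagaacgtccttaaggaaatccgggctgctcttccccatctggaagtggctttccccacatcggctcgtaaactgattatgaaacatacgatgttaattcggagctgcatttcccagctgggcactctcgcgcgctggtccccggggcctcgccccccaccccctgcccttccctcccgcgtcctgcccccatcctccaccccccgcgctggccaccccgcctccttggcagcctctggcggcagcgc
WNT1, chr12:48978072-48978321, plus strand: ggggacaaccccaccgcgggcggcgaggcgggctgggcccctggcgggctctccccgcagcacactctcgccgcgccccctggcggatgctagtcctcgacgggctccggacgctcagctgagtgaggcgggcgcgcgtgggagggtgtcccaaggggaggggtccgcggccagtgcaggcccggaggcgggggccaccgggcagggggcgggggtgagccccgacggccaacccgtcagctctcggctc
WNT2B, upstream start, chr1:112466291-112466540, plus strand: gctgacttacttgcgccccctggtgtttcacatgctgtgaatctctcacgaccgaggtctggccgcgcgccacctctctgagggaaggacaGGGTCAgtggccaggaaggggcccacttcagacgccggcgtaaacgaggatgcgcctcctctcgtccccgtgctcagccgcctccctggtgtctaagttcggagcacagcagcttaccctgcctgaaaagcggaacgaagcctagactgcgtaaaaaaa
WNT6, chr2:218859555-218859804, plus strand: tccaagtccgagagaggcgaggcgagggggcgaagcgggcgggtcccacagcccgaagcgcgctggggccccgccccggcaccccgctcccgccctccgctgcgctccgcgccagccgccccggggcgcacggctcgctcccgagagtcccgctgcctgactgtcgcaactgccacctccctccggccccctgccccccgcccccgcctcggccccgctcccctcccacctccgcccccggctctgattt

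The upstream WNT5A window held TGAACT, which the other strand reads as AGTTCA, at -215 to -210 from the start, and that of WNT2B held GGGTCA at -159 to -154. No core motif was found in the windows of WNT1, of WNT6 or of the downstream WNT5A start. Among all 28 windows of the members, 8 held a core motif and 1, that of WNT3, held a TCF/LEF motif. Of all 35116 RefSeq windows of that length, 38.6% held a core motif and 13.8% a TCF/LEF motif. A direct repeat of the core motif with 1, 2 or 5 bases between was found in 0 windows of the members, against 0.131%, 0.0399% and 0.0883% of all windows. A match of letters is no evidence that a factor binds, and a window without a match says nothing about sites elsewhere.

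Of the 19 ligands, 5 passed the filter: WNT10B, WNT6, WNT7B, WNT2B and WNT5A. The other 14 ligands were scarce. WNT2 and WNT9B had 0 reads in every library, and WNT3A and WNT7A had 1 read each in all libraries together. WNT3, WNT9A, WNT1, WNT10A, WNT16, WNT5B, WNT8B, WNT4, WNT11 and WNT8A had between 4 and 109 reads in all. Among the receptors, 8 of 10 Frizzled genes and 3 of 5 co-receptors passed. FZD10 had 0 reads, FZD8 had 7, ROR1 had 9 and ROR2 had 40 reads over the 16 libraries. At this depth 0 reads in a group allows a level of up to 3 reads over its libraries (counting error only).

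Levels of different genes were compared per kilobase of exon (GENCODE 29, GRCh38). In untreated cells WNT6 was the most abundant ligand, at 99.8 ± 25.6 normalized counts per kilobase (SD, n = 4). WNT10B followed at 47.5 ± 9.30 and WNT7B at 35.5 ± 3.54. The libraries of WNT6 lay apart from those of WNT10B, while those of WNT10B and WNT7B overlapped. WNT2B at 3.37 ± 0.479 and WNT5A at 1.72 ± 0.592 lay far below, with WNT3 at 2.46 ± 0.877 between them and overlapping with each. Among the receptors, FZD1 led the Frizzled genes at 125 ± 9.63 per kilobase, ahead of FZD7 at 50.5 ± 4.90 and FZD2 at 35.9 ± 7.96, the last 2 overlapping. RYK at 112 ± 5.49 and LRP5 at 102 ± 4.10 were the highest co-receptors, and LRP6 stood at 56.9 ± 7.76.

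**Figure D1:**
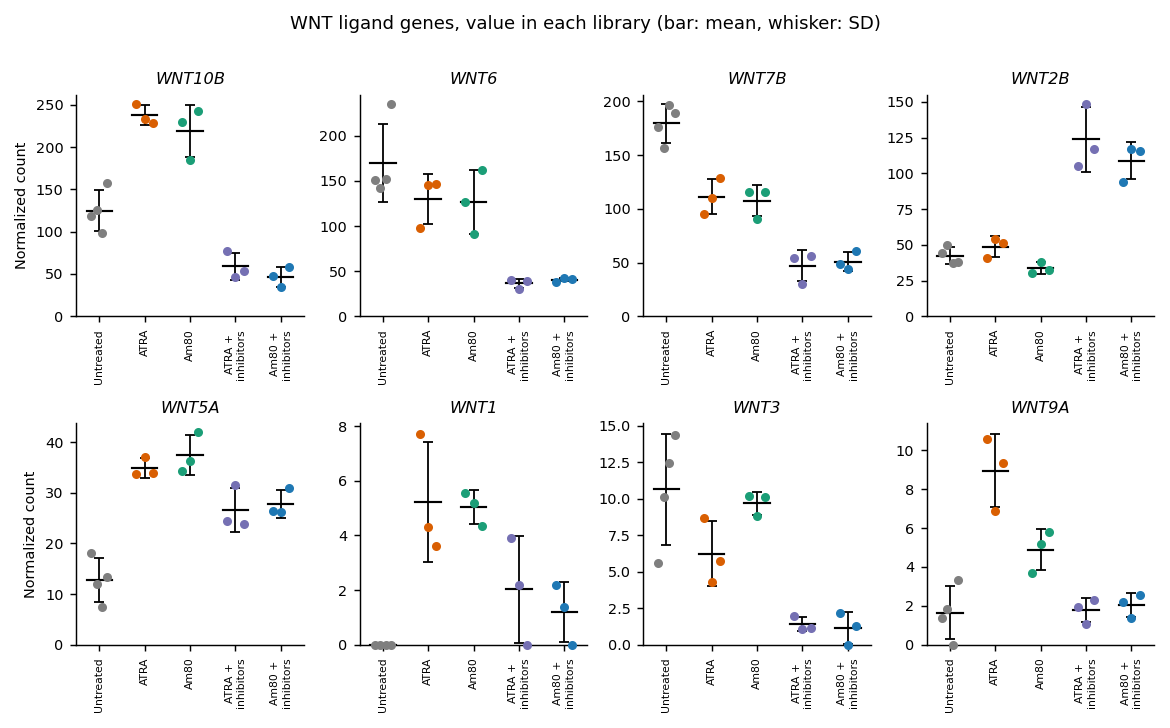
Normalized counts (y axis, from 0) of 8 ligand genes in each library, grouped by condition on the x axis; points are libraries, bars are means and whiskers are SD. WNT10B stands at 184 to 251 with a retinoid alone and at 34.4 to 77.1 once the inhibitors are added, while WNT2B goes the other way.

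With a retinoid alone, 3 ligands changed. WNT10B and WNT5A rose and WNT7B fell, with ATRA and with Am80. WNT10B, a ligand of the β-catenin branch known from bone and fat development (ENSG00000169884.14, GRCh38 chr12:48965340-48971763, minus strand), had 119, 126, 98.4 and 157 normalized counts in the untreated libraries, 251, 234 and 229 with ATRA, and 230, 184 and 242 with Am80. The lowest treated library lay above the highest untreated one. The means, 125 ± 24.5 without treatment (SD, n = 4), 238 ± 11.4 with ATRA and 219 ± 30.6 with Am80 (n = 3 each), were 1.90-fold and 1.75-fold apart. The log2 fold change was 0.94 ± 0.18 (SE) with ATRA (adjusted p = 0.000573, limma) and 0.81 ± 0.18 with Am80 (adjusted p = 0.00191).

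WNT5A, the best known ligand of the branches without β-catenin (ENSG00000114251.15, chr3:55465715-55490539, minus strand), had the largest rise among the ligands tested. It stood at 18.1, 12, 7.47 and 13.3 in untreated cells, at 33.7, 37.1 and 33.9 with ATRA and at 34.3, 36.2 and 41.9 with Am80. The groups did not overlap. The log2 fold changes were 1.44 ± 0.23 (adjusted p = 6.48e-05) and 1.54 ± 0.23 (adjusted p = 2.62e-05). WNT7B, a ligand of the β-catenin branch, had 176, 156, 197 and 189 in untreated cells, 95.4, 110 and 128 with ATRA and 116, 90.6 and 116 with Am80, again without overlap. Its log2 fold changes were -0.69 ± 0.18 (adjusted p = 0.00785) and -0.74 ± 0.18 (adjusted p = 0.00408). Without ATRA replicate 1 the first of these missed the limits, at -0.58 (adjusted p = 0.0582). WNT6, a ligand of the β-catenin branch encoded beside WNT10A, spread widely without and with a retinoid (142 to 235 and 91.1 to 162), and its log2 fold changes of -0.38 and -0.43 did not pass (adjusted p = 0.182 and 0.114). WNT2B did not pass either (adjusted p = 0.432 and 0.164).

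Among the receptors, FZD7 rose with a retinoid and no other receptor was called. FZD7, a Frizzled receptor of the β-catenin branch known from stem cells (ENSG00000155760.3, chr2:202034587-202038445, plus strand), stood at 222, 194, 181 and 183 in untreated cells. It reached 689, 699 and 683 with ATRA, and 634, 631 and 690 with Am80. The treated libraries were thus all far above the untreated ones. The log2 fold changes were 1.82 ± 0.08 with ATRA (adjusted p = 1.20e-13) and 1.74 ± 0.08 with Am80 (adjusted p = 2.73e-13), or 3.54-fold and 3.35-fold between means. FZD1 and FZD5 moved less than the fold limit. FZD1 went from 793 to 957 down to 626 to 709 with a retinoid (log2 fold change -0.39 and -0.37, adjusted p = 0.000984 and 0.00113), and FZD5 went from 65.4 to 68.3 up to 80.2 to 99.3 (0.33 and 0.52, adjusted p = 0.0351 and 0.00109). LRP5, LRP6 and RYK were not called, with adjusted p-values between 0.0518 and 0.922.

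A gene was called when its adjusted p-value was under 0.05 and its change at least 1.5-fold. With ATRA, 4 of the 16 tested members were called, 3 higher and 1 lower, where 9.45% of all tested genes were called (6.52% higher, 2.94% lower). With Am80, 4 were called, again 3 higher (WNT5A, WNT10B and FZD7) and 1 lower (WNT7B), where 10.2% of all genes were (6.41% higher, 3.76% lower). The count covers the tested members and not all 34. The median log2 fold change of the tested members was -0.11 with ATRA and -0.24 with Am80, beside -0.02 and -0.01 for all genes tested. Both comparisons use the same untreated libraries, so their sharing of genes is not independent.

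**Figure D2:**
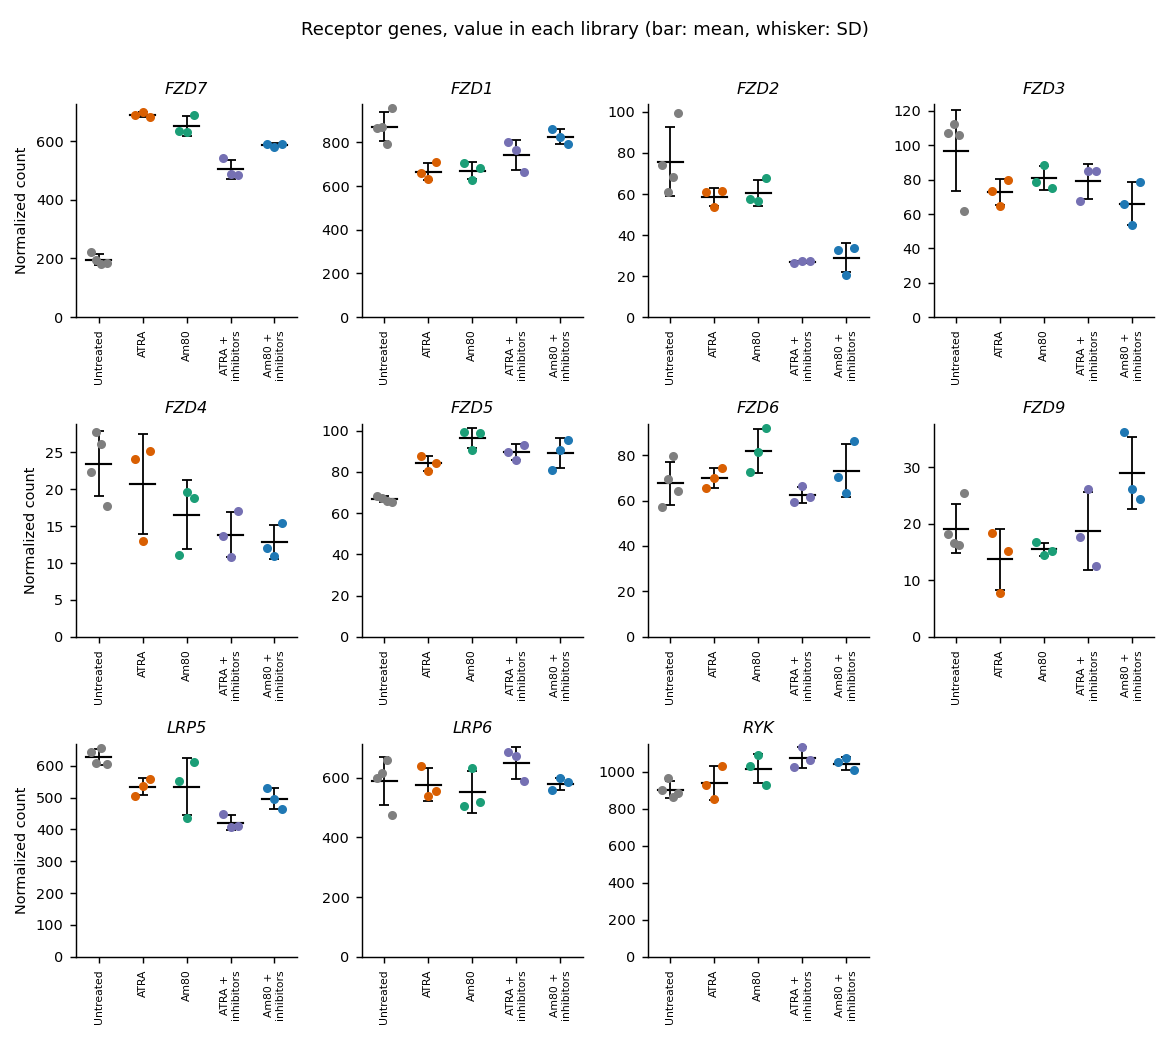
Normalized counts (y axis, from 0) of the 8 Frizzled and 3 co-receptor genes that passed the filter, in each library by condition; points are libraries, bars are means and whiskers are SD. FZD7 lies at 181 to 222 in untreated cells and at 484 to 699 in all treated libraries, while LRP6 overlaps across all conditions.

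When the inhibitors were added to a retinoid, WNT10B, WNT6, WNT7B and FZD2 fell beside both retinoids and WNT2B rose. WNT10B had 77.1, 46.7 and 53.4 normalized counts with ATRA plus inhibitors, and 47.1, 34.4 and 57.9 with Am80 and inhibitors. Every one of these lay below the lowest untreated library of 98.4. Against the retinoid alone its log2 fold change was -2.02 ± 0.20 beside ATRA (adjusted p = 1.01e-07) and -2.23 ± 0.20 beside Am80 (adjusted p = 2.45e-08), a fall in the mean from 238 to 59.1 and from 219 to 46.5. Against untreated cells the log2 fold changes were -1.08 ± 0.18 and -1.42 ± 0.18 (adjusted p = 4.14e-05 and 1.57e-06). WNT10B was thus the tested ligand that stood above the untreated level with each retinoid alone and below it with each combination.

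WNT6 stood at 98.3, 146 and 146 with ATRA against 40.0, 30.4 and 38.6 once the inhibitors were added. With Am80 it stood at 127, 91.1 and 162 against 38.4, 42.6 and 41.2. The libraries with inhibitors lay far below all the others. The log2 fold changes were -1.80 ± 0.21 and -1.58 ± 0.21 (adjusted p = 1.02e-06 and 6.08e-06), and against untreated cells the combinations were 4.67-fold and 4.17-fold lower in the mean. WNT7B had 54.7, 30.4 and 55.7 with ATRA plus inhibitors, and 48.2, 44.0 and 60.5 with Am80 and inhibitors, all below its values with a retinoid alone. Its log2 fold changes against the retinoid were -1.27 ± 0.20 and -1.07 ± 0.20 (adjusted p = 2.59e-05 and 0.000204). Unlike WNT10B, WNT7B had already fallen with the retinoid alone.

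FZD2, a Frizzled receptor used by both kinds of branch (ENSG00000180340.7, chr17:44557459-44559570, plus strand), showed no call with a retinoid alone, at 53.5 to 61.2 with ATRA and 56.4 to 68.0 with Am80. It stood at 26.4, 27.2 and 27.3 with ATRA plus inhibitors and at 32.9, 20.6 and 33.5 with Am80 plus inhibitors. The groups did not overlap, and the log2 fold changes were -1.09 ± 0.20 and -1.07 ± 0.20 (adjusted p = 0.000154 and 0.000237). FZD7 kept most of its rise: it stood at 542, 487 and 484 with ATRA plus inhibitors and at 589, 580 and 591 with Am80 plus inhibitors, still 2.59-fold and 3.01-fold above untreated cells. The step down from ATRA alone had a log2 fold change of -0.45 ± 0.08 (adjusted p = 0.000178), under the fold limit, and that from Am80 alone was -0.15 ± 0.08 (adjusted p = 0.166). WNT5A also remained above untreated cells, at 24.4, 31.5 and 23.9 and at 26.3, 26.1 and 30.9, with log2 fold changes of 1.06 ± 0.23 and 1.12 ± 0.23 (adjusted p = 0.000551 and 0.000346). Its differences from the retinoid alone, -0.39 and -0.42, did not pass (adjusted p = 0.202 and 0.188).

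WNT2B, a ligand of the β-catenin branch (ENSG00000134245.18, chr1:112466541-112530165, plus strand), was the tested ligand that was higher with the inhibitors. It had 40.5, 54.3 and 51.1 with ATRA against 105, 149 and 117 with ATRA plus inhibitors, and 30.6, 38.3 and 32.5 with Am80 against 94.3, 117 and 116 with Am80 and inhibitors. The log2 fold changes were 1.33 ± 0.17 and 1.66 ± 0.17 (adjusted p = 4.19e-06 and 2.96e-07). The value is uncertain. Exons of WNT2B overlap those of ST7L on the other strand, and the strand setting of the counting is not stated. ST7L, which carried more reads, rose as well, from a mean of 628 to 1495 beside ATRA and from 673 to 1513 beside Am80 (log2 fold change 1.24 ± 0.08 and 1.17 ± 0.08, adjusted p = 8.33e-10 and 1.77e-09). Reads from these genes cannot be told apart here, and the part of ST7L in the WNT2B value was not tested.

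FZD4 and FZD9 had low counts, and their calls depended on single libraries. FZD4, which also binds the ligand norrin, had 22.3, 27.7, 26.2 and 17.7 in untreated cells, 13.7, 10.9 and 17 with ATRA plus inhibitors, and 12.1, 11 and 15.4 with Am80 and inhibitors. Its log2 fold changes of -0.72 ± 0.28 and -0.82 ± 0.28 passed (adjusted p = 0.0317 and 0.0181). The first call was lost without untreated replicate 2 or 3 or without ATRA with inhibitors replicate 1 or 2 (adjusted p = 0.0789, 0.0683, 0.0667 and 0.136), and the second without Am80 with inhibitors replicate 1 or 2 (adjusted p = 0.0515 and 0.0701). FZD9 stood at 16.7, 14.5 and 15.2 with Am80 and at 36.2, 26.1 and 24.5 with Am80 and inhibitors, a log2 fold change of 0.84 ± 0.31 (adjusted p = 0.0358). That call was lost without any of the 3 Am80 libraries or without replicate 1 or 2 of Am80 with inhibitors (adjusted p between 0.0572 and 0.142). Of the co-receptors, LRP5 was lower than in untreated cells with ATRA and inhibitors (log2 fold change -0.57, adjusted p = 2.22e-05), just under the fold limit.

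Beside ATRA, the inhibitors changed 5 of the 16 tested members, 1 higher and 4 lower, where 19.5% of all genes were called (8.15% higher, 11.4% lower). Beside Am80 they changed 6, 2 higher and 4 lower, where 15.7% were called (6.81% higher, 8.9% lower). Against untreated cells 8 members were called in each combination, in each case 3 higher (WNT2B, WNT5A and FZD7) and 5 lower (WNT6, WNT7B, WNT10B, FZD2 and FZD4). Of all genes 29.1% were called with ATRA plus inhibitors (14.2% higher, 14.8% lower) and 26% with Am80 plus inhibitors (12.9% higher, 13.1% lower). The median log2 fold change of the tested members was -0.25 and -0.16 against the retinoids, beside -0.02 and -0.01 for all genes. Against untreated cells it was -0.17 and -0.04, beside -0.00303 and -0.00292 for all genes. Scaling to total counted reads in place of size factors shifted the median of all genes by -0.15 and -0.18 against untreated cells, and by -0.14 and -0.12 against the retinoids. The split of all calls then went from 2083 higher and 2172 lower to 1450 and 3099 for ATRA with inhibitors against untreated cells, and from 1896 and 1918 to 1232 and 2991 for Am80 with inhibitors. Against the retinoids it went from 1193 and 1668 to 676 and 2551, and from 997 and 1303 to 674 and 1874. Under that scaling each called change of a member kept its direction, and FZD9 beside Am80 lost its call (adjusted p = 0.0614).

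**Figure D3:**
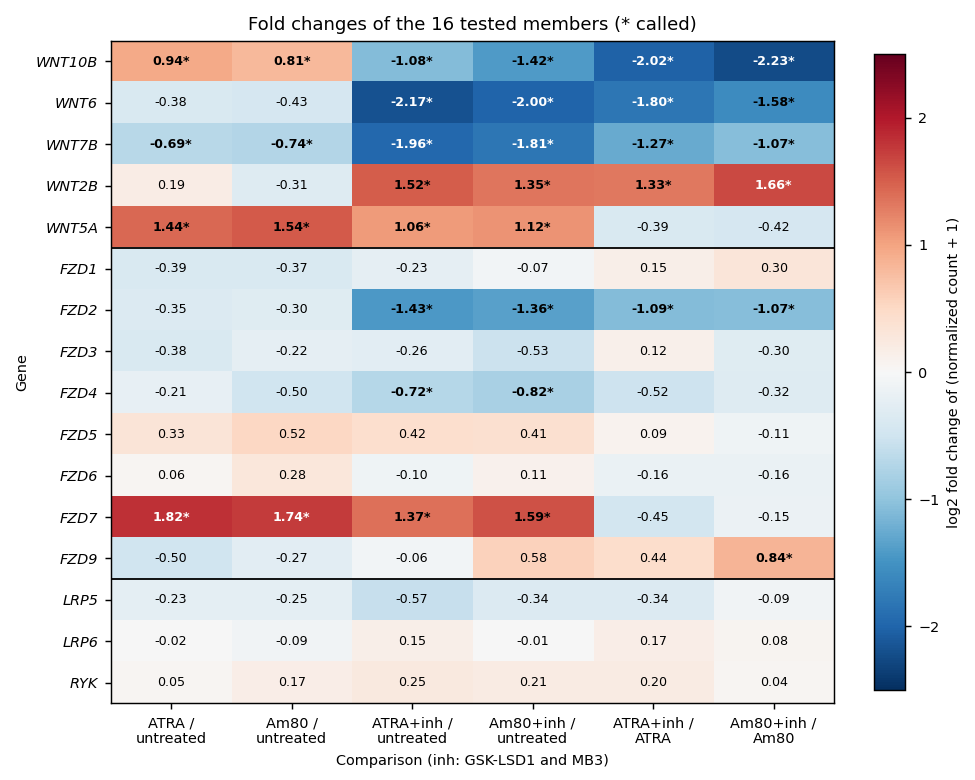
Log2 fold changes of the 16 tested members (rows) in 6 comparisons (columns), coloured from blue (lower) to red (higher); an asterisk marks adjusted p under 0.05 (limma) and at least 1.5-fold. WNT10B changes from 0.94 and 0.81 with a retinoid alone to -2.02 and -2.23 on adding the inhibitors, and FZD7 is above 1.3 in each comparison with untreated cells.

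Placed among the other ligands, WNT10B moved from the second place to the top with a retinoid. Per kilobase it stood at 90.5 ± 4.32 with ATRA, and WNT6 at 76.4 ± 16.2. The lowest WNT10B library, at 87.1, lay only just above the highest WNT6 library, at 85.9. With Am80 the order was the same, 83.3 ± 11.6 against 74.4 ± 20.8, with overlapping libraries. With ATRA and inhibitors WNT10B and WNT6 overlapped again (22.5 ± 6.07 and 21.4 ± 3.05). With Am80 and inhibitors WNT6 led at 23.9 ± 1.27, with WNT10B at 17.7 ± 4.49. There the lowest WNT6 library, at 22.5, lay only just above the highest WNT10B library, at 22.0. As a share of all ligand counts per kilobase, WNT10B made up 24.5% ± 2.69 in untreated cells. It made up 43.4% ± 5.10 with ATRA and 42.4% ± 1.88 with Am80, and 31.4% ± 4.09 and 25.3% ± 5.36 once the inhibitors were added to each. The sum over the ligands was 195 ± 36.1 per kilobase in untreated cells, 210 ± 13.9 with ATRA and 197 ± 34.9 with Am80, against 70.7 ± 9.91 and 69.6 ± 3.97 with the inhibitors. The libraries with inhibitors (61.4 to 81.1) did not overlap with the others (160 to 249). The lengths decide the order in part: with the longest transcript in place of all exons, WNT10B stood at 55.0 and WNT7B at 45.8 per kilobase in untreated cells, with WNT6 still ahead at 99.8. With Am80 and inhibitors the means were then nearer, at 23.9 for WNT6 and 20.4 for WNT10B. The spread of the libraries was not compared with these lengths.

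**Figure D4:**
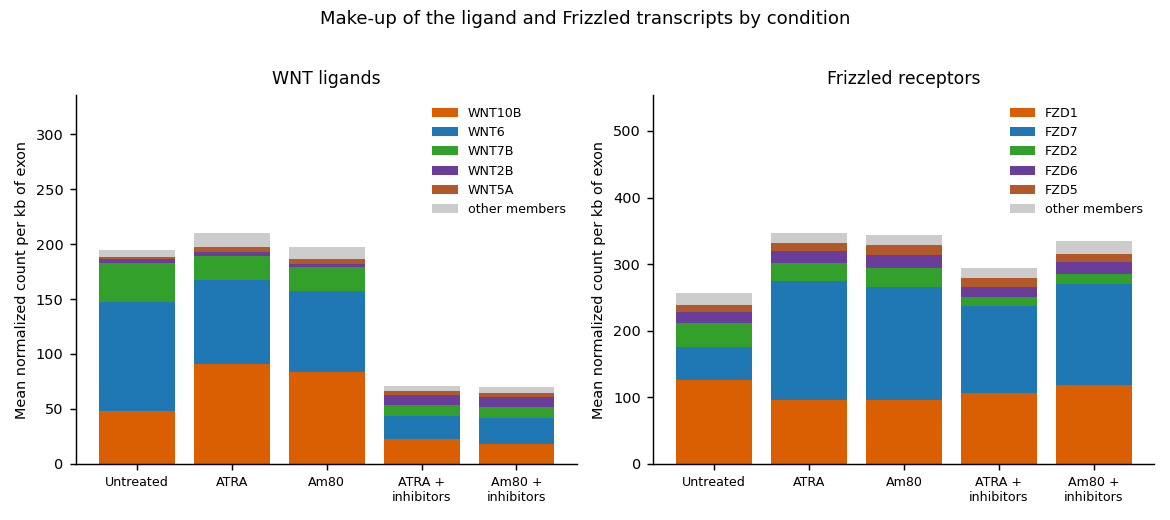
Stacked bars of the mean normalized count per kilobase of exon (y axis, from 0) of the ligands (left) and the Frizzled receptors (right) in the 5 conditions (x axis). The ligand bars shrink from 195 to 210 without inhibitors to 70.7 and 69.6 with them, and FZD7 makes up 19.7% of the Frizzled sum in untreated cells and 44.4% to 51.7% in the treated groups.

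The Frizzled receptors were reordered by the retinoids. FZD1 led in untreated cells with 48.7% ± 1.36 of the Frizzled counts per kilobase, and FZD7 led in every treated group. With ATRA, FZD7 stood at 179 ± 2.07 per kilobase and FZD1 at 95.6 ± 5.69. With ATRA and inhibitors they stood at 131 ± 8.43 and 107 ± 10.1, still apart. FZD2 fell from 13.9% ± 2.33 of the Frizzled sum in untreated cells to 4.34% ± 0.322 with ATRA plus inhibitors and 4.08% ± 0.933 with Am80 plus inhibitors. The sum itself went from 257 ± 14.8 in untreated cells to 346 ± 9.31 with ATRA and 343 ± 16.1 with Am80. The combinations stood at 294 ± 16.8 (ATRA) and 335 ± 9.84 (Am80). The co-receptors kept their order, RYK above LRP5 above LRP6, in all 5 groups, and their sum lay between 259 and 271 per kilobase. These shares and sums are descriptions without a test. FZD3 and FZD6, known from planar polarity, were not called in any comparison.

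Among the scarce ligands, WNT1 stood out. It lies 6689 bases from WNT10B on chromosome 12 (chr12:48978453-48981676, plus strand, the opposite strand to WNT10B), and is the founding ligand of the β-catenin branch. WNT1 had 0 reads in all 4 untreated libraries, 8, 5 and 5 reads with ATRA and 6, 10 and 6 reads with Am80. It had 4, 2 and 0 reads with ATRA plus inhibitors and 2, 1 and 0 with Am80 plus inhibitors. Its mean normalized count was 6.09-fold with ATRA and 5.88-fold with Am80 above a floor of 3 reads over the untreated group. The counting error of the treated reads is not included in these folds. When the filter was dropped, WNT1 was called with each retinoid (adjusted p = 0.00201 and 0.00174, limma). Its lower values on adding the inhibitors were not called (adjusted p = 0.161 beside ATRA and 0.0685 beside Am80). Neither combination was called against untreated cells (adjusted p = 0.0855 with ATRA and 0.253 with Am80).

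WNT9A and WNT3, both of the β-catenin branch, were also called without the filter. WNT9A had 1, 2, 0 and 3 reads in untreated cells, 11, 8 and 13 with ATRA, 4, 10 and 8 with Am80, and 1 or 2 in each library with inhibitors. The rise with ATRA passed (adjusted p = 0.00950, limma), that with Am80 did not (adjusted p = 0.130), and the difference between them was not shown (adjusted p = 0.846 for Am80 against ATRA). On adding the inhibitors WNT9A was called lower beside ATRA (log2 fold change -1.85, adjusted p = 0.0197) but not beside Am80 (-0.96, adjusted p = 0.341). The interaction of retinoid and inhibitors did not pass for WNT9A (adjusted p = 0.820). WNT3 had 4, 11, 10 and 13 reads in untreated cells, 9, 5 and 8 with ATRA and 11, 17 and 14 with Am80, but 2, 1 and 1 with ATRA plus inhibitors and 2, 0 and 1 with Am80 plus inhibitors. It was called lower in each combination against untreated cells (adjusted p = 0.00121 and 0.000394) and against its retinoid (adjusted p = 0.0409 and 0.00181). WNT10A, encoded 6129 bases from WNT6, had 1, 5, 5 and 5 reads in untreated cells and 0 in all 3 libraries with ATRA and inhibitors (adjusted p = 0.0122), but 0, 6 and 0 with Am80 and inhibitors, where the call was not made (adjusted p = 0.236). WNT9B, encoded 46 bases from WNT3, had 0 reads, and WNT3A, encoded 59152 bases from WNT9A, had 1.

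ATRA and Am80, a natural retinoid and a synthetic one of another structure, were compared directly at the same dose and time. Of the 16 tested members 0 were called between Am80 and ATRA alone (smallest adjusted p = 0.191, limma; 1 member at an unadjusted p under 0.05), where 0.0478% of all genes were called, 7 in number. With the inhibitors 0 members were called (smallest adjusted p = 0.198; 2 at an unadjusted p under 0.05), as were 0% of all genes. The interaction of retinoid and inhibitors also gave 0 members (smallest adjusted p = 0.255; 1 at an unadjusted p under 0.05) and 0% of all genes. edgeR and DESeq2 on the recovered reads called 0 members in each of these. Without inhibitors the 95% interval of the difference lay within 1.5-fold for 12 of 16 members and reached past it for WNT2B, WNT5A, FZD4 and FZD9. For WNT10B it ran from 0.689 to 1.22 times the ATRA level and for FZD7 from 0.835 to 1.07 times. WNT2B came nearest to a difference, with a log2 value of -0.51 (0.547 to 0.906 times the ATRA level, adjusted p = 0.191). With inhibitors the interval lay within 1.5-fold for 11 members, and reached past it for WNT6, WNT10B (0.595 to 1.05 times), FZD3, FZD4 and FZD9. For these genes a difference of more than 1.5-fold between the retinoids was not excluded at 3 libraries a group.

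WNT10B shared its pattern with genes outside the pathway. Over the 16 libraries and on the log2 scale, the genes most like it by Pearson's r, members left out, were CCR2, a chemokine receptor (0.972), CCDC71L (0.970), ADGRG5, an adhesion G protein-coupled receptor (0.967), TMPO-AS1, which is antisense to its neighbour and so uncertain without strand (0.966), and FAM53B (0.966). The most opposite were CSGALNACT2, an enzyme of chondroitin sulfate synthesis (-0.981), IL7R (-0.975) and IL21R (-0.974), both cytokine receptors. Among the members r with WNT10B was 0.816 for WNT6, 0.804 for FZD2 and 0.704 for WNT7B, 0.208 for WNT5A and 0.0908 for FZD7, and -0.868 for WNT2B. The libraries fall into 5 treatment groups that all genes share, so these values describe the pattern and carry no test.

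The rest of the pathway was read from 8 lists of 88 genes in all, of which 53 passed the filter. Called higher and lower were 5 and 5 of these with ATRA, 6 and 3 with Am80, 8 and 11 with ATRA plus inhibitors and 6 and 11 with Am80 plus inhibitors, each against untreated cells. Against the retinoid they were 5 and 9 beside ATRA and 4 and 7 beside Am80. Called genes made up 18.9% of the tested ones with ATRA and 17% with Am80, where 9.45% and 10.2% of all genes were called. With the combinations against untreated cells they made up 35.8% and 32.1%, beside 29.1% and 26% of all genes. On adding the inhibitors they made up 26.4% and 20.8%, beside 19.5% and 15.7% of all genes. The lists were chosen with earlier results of these data known, so these shares are descriptions and no test of the pathway. The counts with each retinoid also include TRABD2A, which passed the filter only through the treated groups. The lists that follow hold few tested genes each, so their counts are descriptions to be read against these shares of all genes. The medians lay between -0.14 and 0.01, and those of all genes between -0.0197 and -0.00292.

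Of 6 genes for ligand processing and release, 4 were tested, and 2 of these were called with ATRA and 1 with Am80 (9.45% and 10.2% of all genes). TRABD2A, a membrane protease that cleaves and inactivates WNT ligands, rose from a mean of 2.54 ± 2.31 in untreated cells to 38.5 with ATRA and 42.6 with Am80 and fell back to 13.3 and 10.4 with the inhibitors. On the log2 scale the rises were 3.77 ± 0.44 and 3.91 ± 0.44, and the steps down were -1.53 ± 0.47 and -1.99 ± 0.47. Its untreated mean lay under the filter of 10, so TRABD2A was tested only because of the treated groups where it was high. The rise is therefore given as a description. WLS, the carrier that takes WNT ligands to the cell surface, was lower with ATRA (-0.62, adjusted p = 0.000988) and rose when the inhibitors were added beside each retinoid (0.90 and 0.63, adjusted p = 2.05e-05 and 0.000987). PORCN, which attaches the lipid, and VPS35 were not called. Of the 16 antagonists 5 were tested, of which 1 was called higher and 0 lower with each retinoid, and 1 higher and 2 or 3 lower in the combinations against untreated cells. Of all genes 6.52% and 6.41% were called higher with the retinoids, and 14.8% and 13.1% lower with the combinations. KREMEN1, a receptor for DKK proteins, rose with each retinoid (0.82 and 0.83, adjusted p = 2.53e-08 and 1.82e-08), and DKK2, a secreted antagonist, was lower in each combination than in untreated cells (-0.85 and -0.97, adjusted p = 5.18e-06 and 1.02e-06). KREMEN2 was lower there too (log2 fold changes -1.80 and -1.01, adjusted p = 1.40e-07 and 0.000177).

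Of 9 R-spondins, LGR receptors and genes of receptor turnover 2 were tested, and LGR4, an R-spondin receptor, rose on adding the inhibitors (0.93 and 0.71, adjusted p = 5.47e-08 and 1.86e-06). That step began below the untreated level. The LGR4 mean was 671 in untreated cells, 489 with ATRA and 495 with Am80, against 932 and 809 with the inhibitors. In the signalosome and destruction complex 15 of 16 were tested, and against untreated cells 2 were called higher and 3 lower with ATRA plus inhibitors and 1 higher and 2 lower with Am80 and inhibitors. These are 33.3% and 20% of the tested genes of the list, near the 29.1% and 26% of all genes. AMER1, which helps to bring APC to the membrane, fell with each retinoid (-0.66 and -0.80, adjusted p = 1.83e-05 and 1.12e-06) and again with the inhibitors (-0.80 and -0.88, adjusted p = 2.65e-06 and 8.93e-07). It was the single gene of that list called with either retinoid alone. CTNNB1, the gene of β-catenin, was not called but had higher means. It stood at 3728 ± 141 in untreated cells, 5309 ± 223 with ATRA and 5525 ± 266 with Am80 (SD). With the inhibitors it stood at 5062 ± 289 beside ATRA and 5163 ± 207 beside Am80. Among 12 nuclear effectors 10 were tested, and 2 were called higher and 1 lower with each retinoid, which is 30% of them beside 9.45% and 10.2% of all genes. TLE1, a co-repressor, fell from a mean of 73.8 to 19.5 with ATRA and 26.0 with Am80, and to 6.06 and 8.86 with the inhibitors. Its log2 fold changes were -1.85 ± 0.28 and -1.46 ± 0.28 with the retinoids (adjusted p = 3.90e-05 and 0.000485). TCF7L1, a TCF that mostly represses, rose with each retinoid (1.40 and 1.32, adjusted p = 6.71e-05 and 0.000119), as did BCL9L, a cofactor of β-catenin (0.98 and 0.73, adjusted p = 3.55e-06 and 0.000128). CREBBP, a co-activator, rose on adding the inhibitors (0.63 and 0.86, adjusted p = 0.000333 and 1.42e-05).

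Of 15 common β-catenin targets 6 were tested, and 0 were called higher and 3 lower in each combination against untreated cells, where 14.8% and 13.1% of all genes were called lower. With Am80 alone 1 was called higher and 1 lower. The higher one was NKD2, an inhibitor of the pathway (0.60 ± 0.22, adjusted p = 0.0490), which was not called with ATRA (0.36, adjusted p = 0.265), and the difference between the retinoids did not pass (adjusted p = 0.719). AXIN2, a widely used readout, and LEF1 and LGR5 were below the filter, with highest normalized counts of 5.43, 1.73 and 0.976 in any library. MYC fell with each retinoid (-0.86 ± 0.07 and -0.90 ± 0.07, adjusted p = 4.46e-09 and 2.11e-09) and further with the inhibitors (-0.72 and -0.94, adjusted p = 2.27e-07 and 6.57e-09). CCND1 fell with the inhibitors (-0.86 and -1.02, adjusted p = 9.33e-09 and 8.97e-10). The third target lower in each combination than in untreated cells was NKD1. Its mean was 150 in untreated cells, 133 with ATRA and 127 with Am80, against 94.4 with ATRA plus inhibitors and 87.2 with Am80 plus inhibitors. MYC and CCND1 have many other regulators, and the cause of the lower values of these 3 genes was not tested. In the list of planar polarity and other branches 9 of 15 were tested, and PRICKLE1, a core polarity gene, rose with each retinoid (0.95 and 0.90, adjusted p = 1.76e-08 and 4.07e-08). Of 7 accessory co-receptors 4 were tested, and TSPAN12, a partner of FZD4, was called in 3 comparisons. It was lower than in untreated cells with ATRA alone (-0.61 ± 0.22, adjusted p = 0.0454) and with Am80 and inhibitors (-1.20 ± 0.22, adjusted p = 8.34e-05), and lower with Am80 and inhibitors than with Am80 (-0.77 ± 0.23, adjusted p = 0.0113). With Am80 alone and with ATRA and inhibitors its values against untreated cells were -0.43 and -0.57 (adjusted p = 0.149 and 0.0278), the latter under the fold limit.

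**Figure D5:**
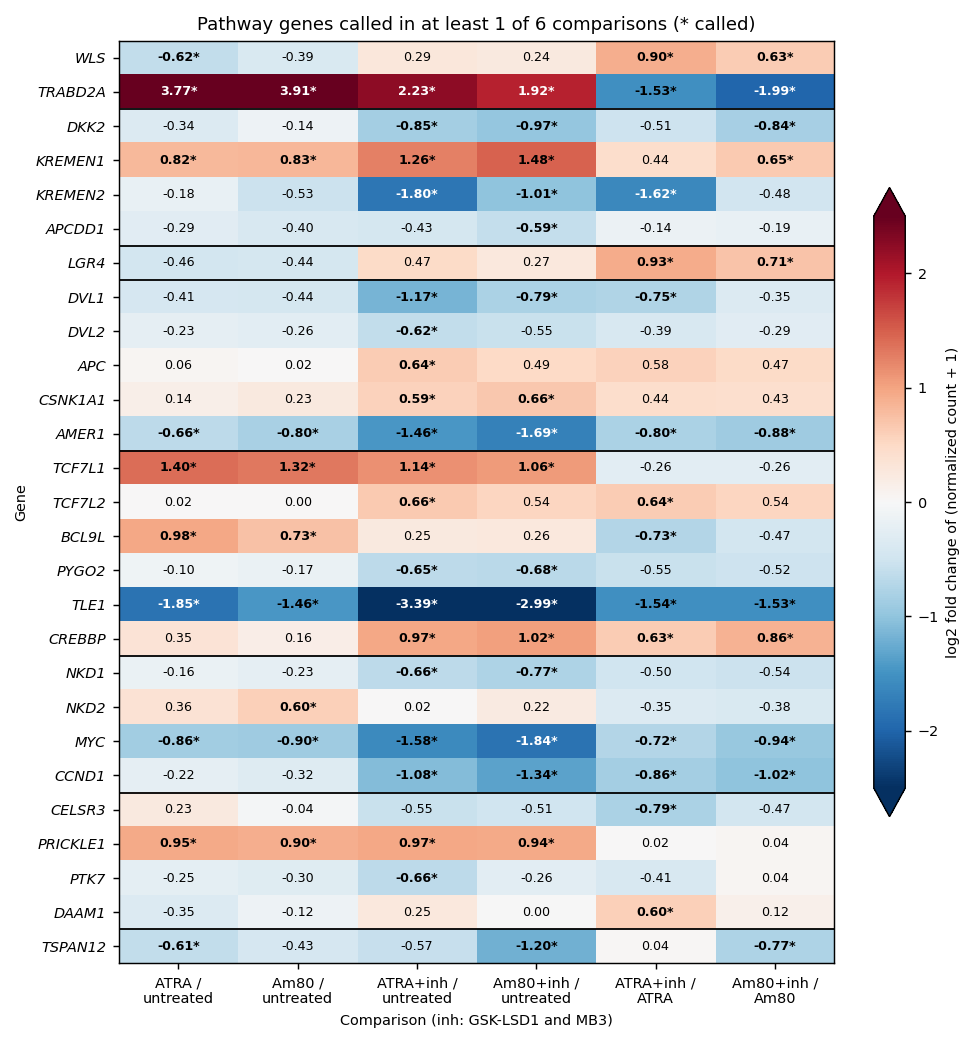
Log2 fold changes of the 27 pathway genes called in at least 1 of 6 comparisons (rows, grouped by list; columns are comparisons); an asterisk marks a call, and colours stop at the ends of the scale. TRABD2A rises by 3.77 and 3.91 with the retinoids. It passed the filter only through the treated groups, so its asterisks carry no support. TLE1 and MYC are lower in all 6 comparisons.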

How the data were processed

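The deposited table held normalized counts per gene for 16 libraries, a count signal that the authors made by dividing read counts by DESeq2 size factors. The labels name cutadapt, STAR, featureCounts and DESeq2 without versions. The genome build, the annotation, the strand setting and the handling of reads that map to several places are not given in the sources used here, and the labels name other extraction and library kits than the published methods. Whole reads were recovered from the values (100% of them within 0.01 of a whole read), giving 11963898 to 33789718 reads per library. All 62700 identifiers matched a symbol table. Gene lengths and positions came from GENCODE 29 (GRCh38). Samples were grouped by their labels.

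Tests used limma 3.58.1 with a mean-variance trend (R 4.3.3) on log2(normalized count + 1), so that folds of low genes are understated, in 1 fit of all libraries over 14643 genes with a mean of at least 10, with Benjamini-Hochberg adjustment over all of them. A gene was called at an adjusted p under 0.05 and at least 1.5-fold. Fits were tested on simulated data. edgeR 4.0.16 and DESeq2 1.42.0 were run on the recovered reads as alternatives, beside other pseudocounts, filters, scaling, a replicate block and leaving out each library. Every member was named, and of each pathway list called genes with large changes. The members and lists were chosen with earlier results of these data known.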

Additional observations from a re-analysis of the deposited data

Results flagged for a closer look

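In 2 of the 16 members examined, 1 of the 4 untreated libraries stood far from the other 3, and in both it was untreated replicate 4. WNT6 had 235 normalized counts there against 142 to 152 in the others, a gap of 0.895 of the whole range, past the 95% critical value of Dixon's test for 4 samples. FZD3 had 62.0 there against 106 to 113, a gap of 0.866 of the range. Chance alone puts about 1 in 20 groups past this limit.

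FZD5 moved in opposite directions when the inhibitors were added: its log2 fold change was 0.0914 beside ATRA and -0.114 beside Am80. Neither was called, and the test of the difference between them did not pass (-0.21, adjusted p = 0.552, limma).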

How the results depend on the processing

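The 35 called changes of members kept their direction in all 308 refits under other settings and all 560 refits that left out a library; 5 and 12 of these missed the limits. The 109 changes that were not called became called in 6 of 961 and 8 of 1744 such refits. With no limit on the fold change, 8 members in place of 5 passed for ATRA with inhibitors against ATRA. A filter at a mean of 50 normalized counts, which leaves out WNT5A, FZD4 and FZD9, gave 3, 3, 6, 6, 5 and 5 called members in the 6 comparisons with calls, in place of 4, 4, 8, 8, 5 and 6. DESeq2 and no filter each lost FZD4 with ATRA and inhibitors against untreated cells (adjusted p = 0.0646 and 0.0884), and no filter also lost it with Am80 and inhibitors (0.0532) and lost FZD9 beside Am80 (0.0947). Newly called were WNT6 with Am80 without Am80 replicate 3 (-0.62, adjusted p = 0.0314), FZD4 for ATRA with inhibitors against ATRA without ATRA replicate 2 (-0.81), LRP5 with ATRA and inhibitors without untreated replicate 2 or 4 or ATRA with inhibitors replicate 1 (-0.59, -0.59 and -0.62), FZD3 with Am80 and inhibitors without untreated replicate 4 or Am80 with inhibitors replicate 3 (-0.73 and -0.66), and FZD9 with Am80 and inhibitors without untreated replicate 4 (0.72), each of the last 3 against untreated cells. Scaling to total reads also called LRP5 (-0.72), FZD3 (-0.71) and FZD7 for ATRA with inhibitors against ATRA (-0.60). The cause was not tested. Of 30 pairs of libraries with the same replicate number, 4 had a correlation of deviations over 0.1 (range -0.112 to 0.187), so the numbers were not taken as pairs. A replicate block gave 9 and 10 called members for the combinations against untreated cells in place of 8 and 8, and the main counts elsewhere. Only untreated cells had a replicate 4, so the block also took that library out of these comparisons. The calls it added, LRP5 (-0.59) with ATRA and inhibitors and FZD3 (-0.73) and FZD9 (0.72) with Am80 and inhibitors, had the same values as without that library. The block is therefore no separate check of pairing there. Members under the filter rest on at most 17 reads per library, so smaller differences among them were not detectable at this depth.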
